A study of Mus musculus with 2 samples.

Results

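The Fc gamma receptors and their signalling chain were described in microglia of PSAPP mice, which carry the APPswe/PS1.delta.E9 transgenes and deposit amyloid in the brain. The members were picked by gene symbol, by a rule that used no measured value, though earlier results of these data were known when it was set. They were the activating receptor genes *Fcgr1*, *Fcgr3* and *Fcgr4*, the gene of their common signalling chain, *Fcer1g*, and the inhibitory receptor gene *Fcgr2b*, and they made up 5 of the 32285 genes in the count table. Each mouse had been given vehicle (VEH) or lemborexant (LEM), a drug that blocks both orexin receptors and promotes sleep, at 30 mg/kg/day by daily gavage for 30 days, from 9 to 10 months of age. For each treatment, cells from cortex and hippocampus of 5 mice of both sexes were pooled into 1 library of 5′ single-cell RNA-seq, so 2 libraries were compared, all mice carried the transgenes, and treatment and library cannot be told apart. Cells were first incubated with an antibody to CD16 and CD32, which are the proteins of *Fcgr3* and *Fcgr2b*, to keep the stains from binding to Fc receptors, and live cells low in CD45 and positive for CD11b were then sorted. Whether this antibody altered the RNA of these genes was not tested.

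Fc gamma receptors bind the constant part of IgG and let macrophages, microglia among them, take up antibody-coated material. *Fcgr1* encodes FcγRI, which binds single IgG molecules with high affinity, whereas FcγRIII (*Fcgr3*) and FcγRIV (*Fcgr4*) bind mainly IgG in complexes. All 3 of these depend on the FcRγ chain, encoded by *Fcer1g*, whose ITAM motif is phosphorylated by Src-family kinases and recruits the kinase Syk. FcγRIIB (*Fcgr2b*) has an ITIM motif of its own, which recruits the phosphatase SHIP-1 (*Inpp5d*) and opposes that signal, so the balance of *Fcgr2b* against the activating receptors is known to set how strongly a cell responds to immune complexes. *Fcgr1* is also a long-known interferon-induced gene of macrophages.

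On the GENCODE M21 annotation of GRCm38, 4 of the 5 genes lie within 275.749 kb on chromosome 1. *Fcgr2b* spans chr1:170958617-170976547 on the minus strand, *Fcgr4* chr1:171018920-171029761 on the plus strand, *Fcgr3* chr1:171051174-171064935 on the minus strand and *Fcer1g* chr1:171229572-171234365 on the minus strand. *Fcgr1* lies apart at chr3:96282909-96293969 on the minus strand. The promoters of the 3 activating receptors are shown because the levels of *Fcgr1* and *Fcgr4* moved with interferon genes, while *Fcgr3* did not pass 2-fold with them. Each is the RefSeq window on GRCm38.p6 from 250 bases before the transcription start to 50 after it, written 5′ to 3′ on the strand of the gene, at chr3:96293920-96294219 for *Fcgr1*, chr1:171018676-171018975 for *Fcgr4* and chr1:171059354-171059653 for *Fcgr3*. Capitals mark matches on either strand to the interferon-gamma activated site, GAS (TTCNNNGAA), a core of the ISRE bound by interferon regulatory factors (GAAANNGAA) and the core of PU.1 sites (GAGGAA).
*Fcgr1* promoter: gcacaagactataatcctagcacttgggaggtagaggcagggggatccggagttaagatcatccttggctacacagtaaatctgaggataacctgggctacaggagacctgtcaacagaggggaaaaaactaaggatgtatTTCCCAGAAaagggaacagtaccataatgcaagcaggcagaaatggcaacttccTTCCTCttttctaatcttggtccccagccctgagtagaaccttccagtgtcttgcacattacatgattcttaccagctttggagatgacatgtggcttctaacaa
*Fcgr4* promoter: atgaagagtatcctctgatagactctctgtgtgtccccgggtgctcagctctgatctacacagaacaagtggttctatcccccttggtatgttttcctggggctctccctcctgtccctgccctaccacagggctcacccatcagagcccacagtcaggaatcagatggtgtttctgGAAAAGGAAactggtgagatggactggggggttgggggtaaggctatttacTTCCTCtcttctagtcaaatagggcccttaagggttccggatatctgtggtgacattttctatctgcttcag
*Fcgr3* promoter: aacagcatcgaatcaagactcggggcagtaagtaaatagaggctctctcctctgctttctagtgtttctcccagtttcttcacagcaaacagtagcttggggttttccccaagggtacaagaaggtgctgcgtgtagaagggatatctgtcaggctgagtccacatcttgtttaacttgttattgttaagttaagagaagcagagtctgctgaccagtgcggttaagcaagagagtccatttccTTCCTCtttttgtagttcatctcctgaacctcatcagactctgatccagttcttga
The *Fcgr1* window held a GAS match starting 109 bases before the start and a PU.1 match 55 bases before it. The *Fcgr4* window held an ISRE match 73 bases and a PU.1 match 22 bases before the start, and the *Fcgr3* window a PU.1 match alone, 6 bases before it. The windows of *Fcgr2b* and *Fcer1g* held no match to these letters. Over 32851 RefSeq promoter windows of the same length, 8.30% held the GAS letters, 8.56% the ISRE letters and 28.3% the PU.1 letters, and whether any of these matches is bound was not tested.

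*Fcgr3* and *Fcgr2b* also share identical stretches of transcript sequence. The longest, in coding sequence, is shown because reads from it cannot be told apart between the 2 genes. It is 129 bases long and runs from exon 3 into exon 4 of both genes, at chr1:171054167-171057792 in *Fcgr3* and chr1:170966674-170968081 in *Fcgr2b*, each span with its intron. Capitals mark the bases of this run and lower case the 10 transcript bases on either side, from GRCm38.
*Fcgr3*: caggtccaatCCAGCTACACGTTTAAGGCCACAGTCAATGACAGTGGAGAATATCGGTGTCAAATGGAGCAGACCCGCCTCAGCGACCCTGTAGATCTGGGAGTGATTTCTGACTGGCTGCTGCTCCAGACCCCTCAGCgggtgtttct
*Fcgr2b*: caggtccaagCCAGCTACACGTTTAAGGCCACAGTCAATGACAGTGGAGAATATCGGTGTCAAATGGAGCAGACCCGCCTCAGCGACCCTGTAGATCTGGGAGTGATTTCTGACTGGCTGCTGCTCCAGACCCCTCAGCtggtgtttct
Of the stretches of 31 bases in the transcripts of each gene, 13.4% of those of *Fcgr3* and 4.15% of those of *Fcgr2b* occurred in the other, while no other pair of members shared a run longer than 14 bases. The 233 stretches of 31 bases in common were more than the run shown can hold, so some lie outside it. How reads from the shared stretches were counted is not given in the sources used here. Levels of *Fcgr3* and *Fcgr2b* are therefore given with this limit. An antisense gene that overlaps *Fcgr2b*, *Gm38204*, held 19 counts in VEH and 18 in LEM.

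The VEH library held 18374 cells and 116229678 counts and the LEM library 24392 cells and 160752298 counts, with medians of 5971 and 6034 counts per cell. A gene with 0 counts in a library could still have a count in up to 0.0163% of VEH or 0.0123% of LEM cells, a limit on cells with a count and not on cells that express the gene. Cells were put into states by the number of marker genes with at least 1 count, and no member was used for this. Homeostatic-like cells made up 89.9% of VEH and 88.0% of LEM cells, and their defining genes, such as *P2ry12* and *Tmem119*, were present at a median of 8 of 8. The smaller states were DAM-like cells (disease-associated microglia, at least 4 of 7 measured genes such as *Cst7* and *Lpl*), with 193 VEH and 295 LEM cells, intermediate cells with 2 or 3 of these genes (632 and 1096), MHC-II cells (251 and 214), interferon-like cells with at least 5 of 10 genes such as *Ifit3* and *Isg15* (276 and 502), proliferating-like cells with at least 4 of 10 mitotic genes such as *Mki67* and *Top2a* (143 and 204) and BAM-like cells, with genes of border-associated macrophages such as *Mrc1* (24 and 68). Microglial markers were at a median of 7 or 8 of 8 genes in each of these states. The homeostatic genes were also at a median of 8 of 8 in them, apart from BAM-like cells at 7. Their detection thus did not set homeostatic-like cells apart, though levels differed. *P2ry12* was at 4521 CPM in VEH and 4347 CPM in LEM homeostatic-like cells, against 2153 CPM and 2269 CPM in DAM-like cells. The cell names carried no barcodes, so barcodes shared between the libraries could not be counted.

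Levels are given as CPM, the counts of a gene scaled to a common total over the cells summed, with exact 95% Poisson intervals that cover counting error only, and differences between genes in CPM are in molecules counted near the 5′ end, not per length of transcript. With 1 library per treatment there was no replicate and no test was made.

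*Fcer1g* was the most counted member, followed by *Fcgr3*, and both were found in nearly every cell. The *Fcer1g* level was 2017 CPM (2009 to 2025) in VEH and 1991 CPM (1984 to 1998) in LEM, with a count in 95.2% and 96.0% of cells. *Fcgr3* stood at 1246 CPM (1239 to 1252) and 1312 CPM (1307 to 1318), with a count in 94.4% and 95.5% of cells. *Fcgr1* and *Fcgr2b* were several-fold lower and close to each other. *Fcgr1* was at 343 CPM (340 to 347) in VEH and 373 CPM (370 to 376) in LEM, and *Fcgr2b* at 358 CPM (355 to 362) and 370 CPM (367 to 373). In LEM these 2 intervals overlapped. *Fcgr1* had a count in 78.3% and 82.2% of cells and *Fcgr2b* in 77.6% and 80.0%. *Fcgr4* was rare, at 8.43 CPM (7.91 to 8.98) and 11.4 CPM (10.93 to 11.98), from 980 and 1840 counts, with a count in 4.71% and 6.75% of cells. Most of the cells with *Fcgr4* held a single count of it, which was so in 766 VEH and 1474 LEM cells, and the highest count in 1 cell was 7.

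To compare cells at 1 depth, each cell was thinned to 2000 counts, which left out 1305 VEH and 1215 LEM cells that were shallower. The share of cells with a count was then 93.1% and 93.6% for *Fcer1g*, 87.2% and 88.6% for *Fcgr3*, 47.8% and 51.0% for *Fcgr1*, 48.3% and 49.6% for *Fcgr2b* and 1.64% and 2.04% for *Fcgr4*. *Fcer1g* was found together with at least 1 activating receptor in 87.8% of VEH and 89.1% of LEM cells, and *Fcgr3* together with *Fcgr2b* in 43.2% and 45.0%. These joint shares were not set against those expected from the single genes and are not read as a link between them. Cells without a count of any member made up 1.93% and 1.36%.

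The members' counts were set against droplets with at least 3 choroid plexus genes, such as *Enpp2* and *Folr1*, since epithelial cells of the choroid plexus should lack these receptors. There were 47 such droplets in VEH and 142 in LEM, with median depths of 9338 and 8109 counts against 5868 and 5906 in homeostatic-like cells, and they also held microglial markers at a median of 8 and 7 of 8 genes. In them 55.3% and 54.2% held *Fcgr1*, whose level was 64.8% and 54.6% of that in homeostatic-like cells. Thinned to 2000 counts, 22.7% and 28.9% of these droplets held *Fcgr1* against 48.0% and 51.3% of homeostatic-like cells. *Fcgr3*, *Fcer1g* and *Fcgr2b* stood at 54.3% to 71.3% of their homeostatic-like levels in these droplets. These shares depended on the gate. With at least 7 choroid plexus genes, which left 15 VEH and 68 LEM droplets, *Fcgr1* stood at 29.7% and 42.2% and the other 3 at 40.4% to 48.5%. *Fcgr4* had a count in 2 of the 47 VEH and 9 of the 142 LEM droplets, or 4.26% and 6.34%, against 4.39% and 6.19% of homeostatic-like cells. Thinned, these shares were 0% (0% to 8.04%) and 1.48% (0.180% to 5.25%) in the droplets against 1.598% (1.41% to 1.81%) and 1.90% (1.72% to 2.10%) in homeostatic-like cells. The *Fcgr4* shares of homeostatic-like cells thus lay within the intervals of the droplets and are not read as expression. Since the droplets also held microglial markers, free RNA and microglia caught in the same droplet cannot be told apart in them.

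**Figure D1:**
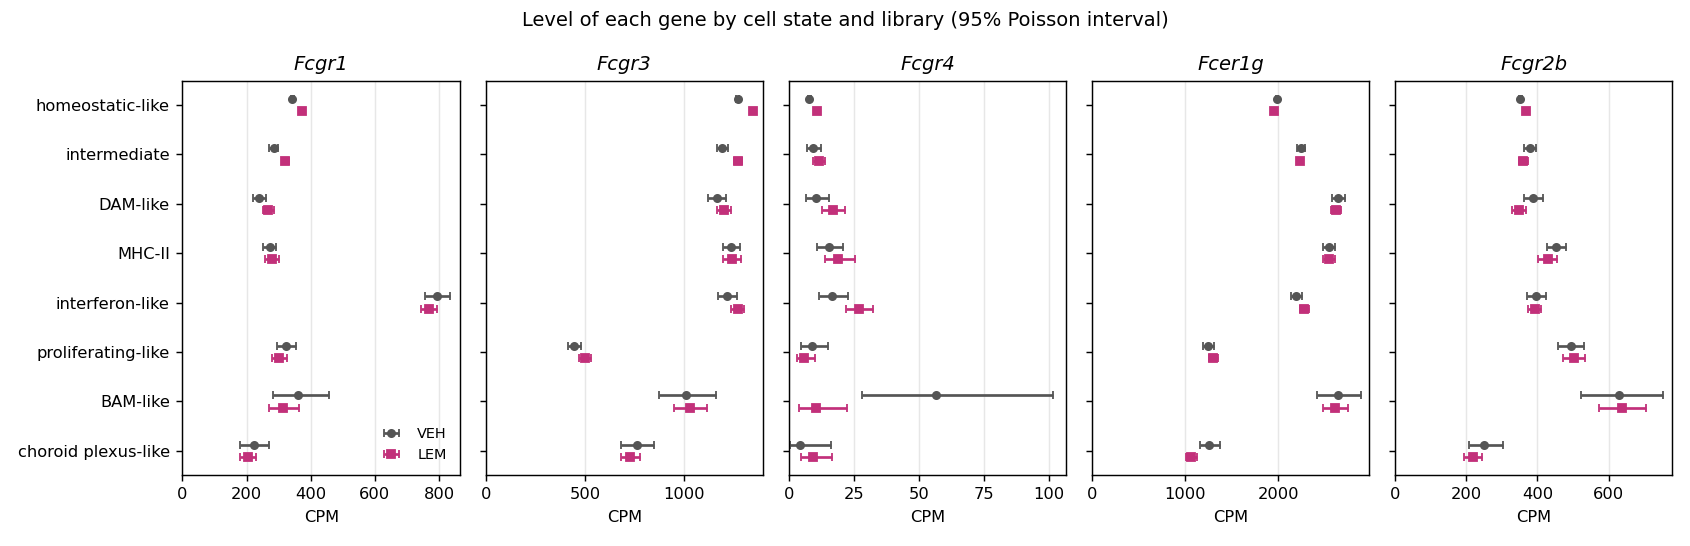
Level of each of the 5 genes in CPM (horizontal axis, starting at 0 and scaled per gene) by cell state, with VEH as grey circles, LEM as magenta squares and bars for the 95% Poisson interval. *Fcgr1* was highest in interferon-like cells, at 794 CPM in VEH and 769 CPM in LEM, and *Fcgr3* was lowest in proliferating-like cells, at 447 CPM and 499 CPM.

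Interferon-like cells held more *Fcgr1* and *Fcgr4* than homeostatic-like cells in both libraries. *Fcgr1* was at 794 CPM (758 to 833) in VEH interferon-like cells against 343 CPM (339 to 346) in homeostatic-like cells, and at 769 CPM (743 to 795) against 373 CPM (370 to 376) in LEM. These were ratios of 2.32-fold and 2.06-fold, or log2 1.21 (1.14 to 1.28) and 1.04 (0.99 to 1.09). The interferon-like and homeostatic-like intervals did not overlap in either library, and both libraries gave the same order. After thinning, 71.2% of VEH and 73.8% of LEM interferon-like cells held *Fcgr1*, against 48.0% and 51.3% of homeostatic-like cells. *Fcgr4* was at 16.4 CPM (11.5 to 22.8) from 36 counts in VEH and at 26.8 CPM (22.2 to 32.2) from 116 counts in LEM, against 7.92 CPM and 10.8 CPM in homeostatic-like cells, a log2 ratio of 1.05 (0.53 to 1.54) and 1.32 (1.03 to 1.59). Its share of cells, 9.06% and 17.7%, stood above the choroid plexus-like background beyond the intervals in LEM (14.5% to 21.4% against 2.94% to 11.7%) but not in VEH (5.95% to 13.1% against 0.520% to 14.5%). Thinned to 1 depth, the intervals overlapped in both libraries, at 3.75% to 7.99% against 0.180% to 5.25% in LEM and 1.28% to 5.73% against 0% to 8.04% in VEH.

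The remaining members differed little in CPM but were higher in counts per cell. In CPM, *Fcgr3* stood at log2 -0.061 and -0.083 relative to homeostatic-like cells, *Fcgr2b* at 0.17 and 0.089, and the signalling chain *Fcer1g* at 0.14 and 0.22. In counts per cell *Fcgr3* stood at 0.31 and 0.36, *Fcgr2b* at 0.54 and 0.53 and *Fcer1g* at 0.52 and 0.67. Thus, in CPM, 2 of the 5 members were past 2-fold higher and 0 past 2-fold lower in each library. Of all genes tested, 5.67% were higher and 2.92% lower by that size in VEH, and 3.89% and 1.42% in LEM, around medians of log2 -0.087 and -0.11. The members' medians were 0.17 and 0.22. Over 9 other settings the *Fcgr1* ratio ranged from log2 1.05 to 1.77 in VEH and from 0.85 to 1.71 in LEM, the lowest being LEM female cells, and that of *Fcgr4* from 0.49, in VEH female cells, to 1.43 and from 0.87 to 1.76.

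*Fcgr1* also followed the number of interferon genes found in a cell. In VEH its level was 330 CPM in 14395 cells with none of the 10 genes and 342 CPM in cells with 1 or 2. It was 437 CPM with 3 or 4 genes, 608 CPM with 5 or 6, 836 CPM with 7 or 8 and 1205 CPM (1100 to 1317) in the 47 cells with 9 or 10. In LEM the same bins gave 359, 368, 441, 577, 854 and 1239 CPM (1155 to 1328), the last from 78 cells. Each bin was above the one before it in both libraries, and median depth stayed between 6759 and 7710 counts per cell over the bins with at least 1 gene. Per cell, the mean *Fcgr1* count was 1.96 with no interferon gene and 10.3 with 9 or 10 in VEH, and 2.19 and 10.3 in LEM. *Fcgr4* went from 7.89 CPM to 44.8 CPM (26.6 to 70.8, 18 counts) in VEH and from 10.3 CPM to 35.4 CPM (22.4 to 53.1, 23 counts) in LEM. In VEH, *Fcgr4* did not order the middle bins, with 9.85 CPM at 5 or 6 genes and 11.6 CPM at 7 or 8, whereas in LEM every bin was above the one before it.

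**Figure D2:**
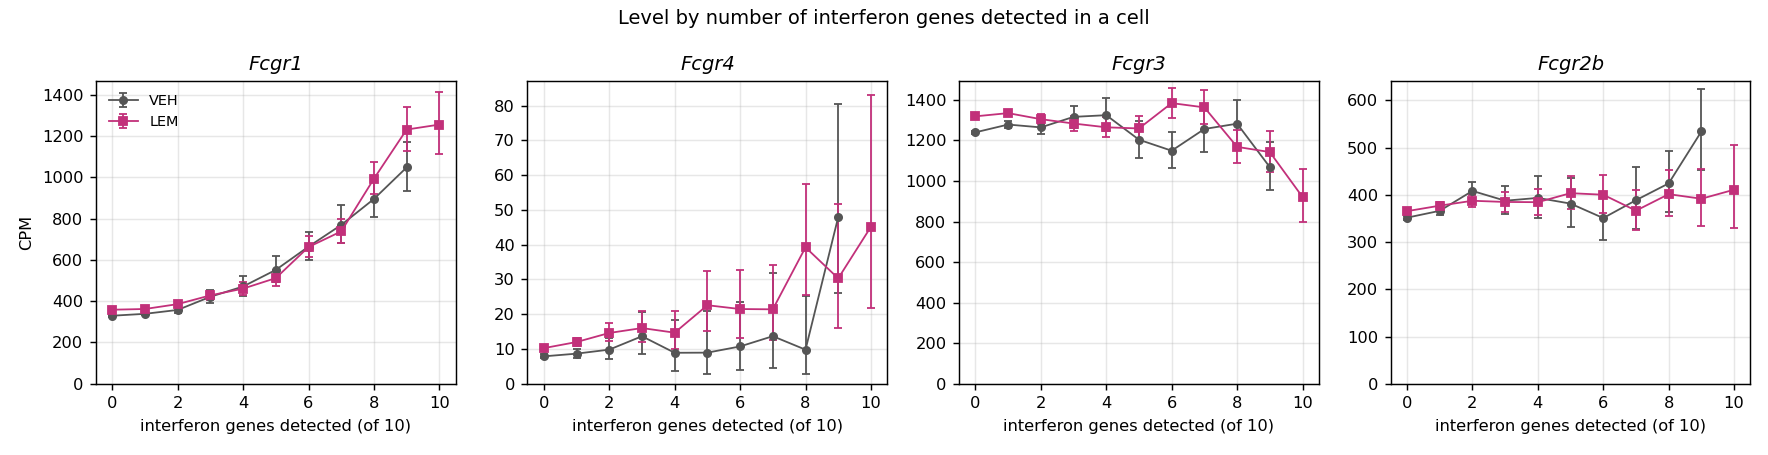
Level in CPM (vertical axis, starting at 0) against the number of interferon genes, of 10, found in a cell (horizontal axis), with VEH in grey, LEM in magenta and bars for the 95% Poisson interval. *Fcgr1* was at 1048 CPM and 1231 CPM in cells with 9 interferon genes, while cells without interferon genes were at 330 CPM and 359 CPM. Numbers of genes found in fewer than 20 cells of a library are not drawn.

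Cells that held DAM genes were lower in *Fcgr1* in CPM at either level of interferon genes, but not in counts per cell. Among cells with under 5 interferon genes, *Fcgr1* was at 342 CPM (338 to 345) with 0 or 1 DAM genes and 268 CPM (258 to 279) with 2 or more in VEH, and at 372 CPM (369 to 375) and 302 CPM (293 to 310) in LEM. Among cells with at least 5 interferon genes it was at 841 CPM (798 to 885) and 613 CPM (542 to 691) in VEH, the latter from 42 cells, and at 832 CPM and 575 CPM in LEM. The DAM-rich cells were below the DAM-poor cells and the interferon-rich cells above the interferon-poor cells in CPM in each of these pairs. In counts per cell, where deeper cells weigh more, VEH gave 2.07 and 2.64 in the interferon-poor and 6.27 and 6.48 in the interferon-rich cells, so the DAM-rich cells were not lower, while the interferon-rich cells stayed above.

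Proliferating-like cells were lower in *Fcgr3* and higher in *Fcgr2b* than homeostatic-like cells, and lower in *Fcer1g* in CPM but not in counts per cell. *Fcgr3* was at 447 CPM (414 to 483) in VEH and 499 CPM (470 to 530) in LEM, against 1269 CPM (1262 to 1276) and 1344 CPM (1338 to 1351). It was thus 2.84-fold and 2.69-fold lower, at log2 -1.50 (-1.62 to -1.39) and -1.43 (-1.52 to -1.34). This order held in both libraries and also in counts per cell not divided by depth, where the log2 ratios were -0.76 and -0.67. Thinned, 51.7% and 55.0% of proliferating-like cells held *Fcgr3* against 87.9% and 89.6% of homeostatic-like cells. *Fcer1g* was at 1250 CPM (1194 to 1309) and 1302 CPM (1254 to 1350) against 1990 CPM and 1955 CPM, a log2 ratio of -0.67 and -0.59, but its counts per cell were not lower, at log2 0.075 and 0.17. *Fcgr2b* was at 494 CPM (458 to 531) and 502 CPM (473 to 532) against 352 CPM and 369 CPM, a log2 ratio of 0.49 (0.38 to 0.59) and 0.44 (0.36 to 0.53). The *Fcgr2b* ratio stayed above 0 under each of 9 other settings in both libraries.

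*Fcgr1* stood at log2 -0.081 (-0.21 to 0.050) in VEH and -0.30 (-0.42 to -0.19) in LEM, and above 0 per cell, at 0.67 and 0.46. *Fcgr4* rested on 13 counts in each library. Past 2-fold, 0 of the 5 members were higher and 1, *Fcgr3*, was lower in each library, where 19.7% of all genes were higher and 7.51% lower in VEH, and 17.2% and 6.02% in LEM. In counts per cell not divided by depth, *Fcgr3* was no longer past 2-fold, at log2 -0.76 and -0.67, and *Fcgr2b* was past it, at 1.23 and 1.21. The median of all genes was log2 0.12 and 0.093 and that of the members -0.081 and -0.59. The summed level of the 8 microglial markers was also lower in proliferating-like cells, at 30999 and 32173 CPM against 44107 and 45127 CPM in homeostatic-like cells, with all 8 found in the median cell, and its part in the *Fcgr3* values was not tested.

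*Fcgr2b* was therefore counted about as often as *Fcgr3*, 1 of the 3 activating receptors, in proliferating-like cells. *Fcgr1* held 475 counts in VEH and 661 in LEM in these cells, beside 656 and 1091 of *Fcgr3*. There were 0.278 *Fcgr2b* counts per *Fcgr3* count (0.274 to 0.281) in VEH homeostatic-like cells and 0.274 (0.272 to 0.277) in LEM. In proliferating-like cells there were 1.10 (0.992 to 1.23) and 1.01 (0.924 to 1.09). Single cells showed the same order, with more *Fcgr2b* than *Fcgr3* in 50.3% of VEH and 44.1% of LEM proliferating-like cells against 4.93% and 4.36% of homeostatic-like cells. Female and male cells taken apart gave 1.10 and 1.23 in VEH and 1.00 and 1.15 in LEM. The other microglial states lay between 0.284 and 0.366, and BAM-like cells at 0.622 (0.492 to 0.784) and 0.620 (0.543 to 0.707). How reads from the stretches that both genes share were counted is not known here, and their part in these values was not tested.

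*Fcgr3* was lower and *Fcgr2b* higher in cells with all 10 mitotic genes than in cells with none, with steps out of order between them for *Fcgr3* in LEM and for *Fcgr2b* in both libraries. *Fcgr3* was at 1262 CPM in VEH cells with none of the 10 genes, 1221 CPM with 1 gene, 872 CPM with 2 or 3, 599 CPM with 4 to 6, 493 CPM with 7 to 9 and 337 CPM (293 to 387) in the 53 cells with all 10. In LEM it was at 1335, 1269, 951, 608, 621 and 401 CPM (365 to 438), the last from 92 cells. Over the same bins *Fcgr2b* was at 356, 369, 444, 435, 405 and 607 CPM (546 to 672) in VEH and at 368, 375, 388, 362, 462 and 560 CPM (518 to 604) in LEM. *Fcer1g* went from 2027 CPM with none to 947 CPM with all 10 in VEH and from 2002 CPM to 1164 CPM in LEM. The fall of *Fcer1g* was not seen per cell in LEM, where it went from 12.9 to 15.1 counts, and was from 12.6 to 10.8 in VEH. *Fcgr2b* per *Fcgr3* count went from 0.282 to 1.80 and from 0.276 to 1.40. Per cell, *Fcgr3* went from 7.82 to 3.85 counts in VEH and from 8.62 to 5.18 in LEM, while *Fcgr2b* went from 2.20 to 6.92 and from 2.38 to 7.25. Among cells with at most 1 mitotic gene, binned by S-phase genes such as *Mcm2* and *Pcna*, *Fcgr3* stayed at 1005 CPM or above in every bin. In VEH it was at 1248 CPM with no S-phase gene and at 1283, 1277, 1217, 1195, 1005, 1053 and 1308 CPM with 1 to 7. In LEM it was at 1328 CPM with none and at 1353, 1354, 1282, 1229, 1110, 1138, 1164 and 1180 CPM with 1 to 8. Cells with 1 or 2 S-phase genes were above those with none in both libraries, and those with 3 or more were below them, apart from the 28 VEH cells with 7.

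**Figure D3:**
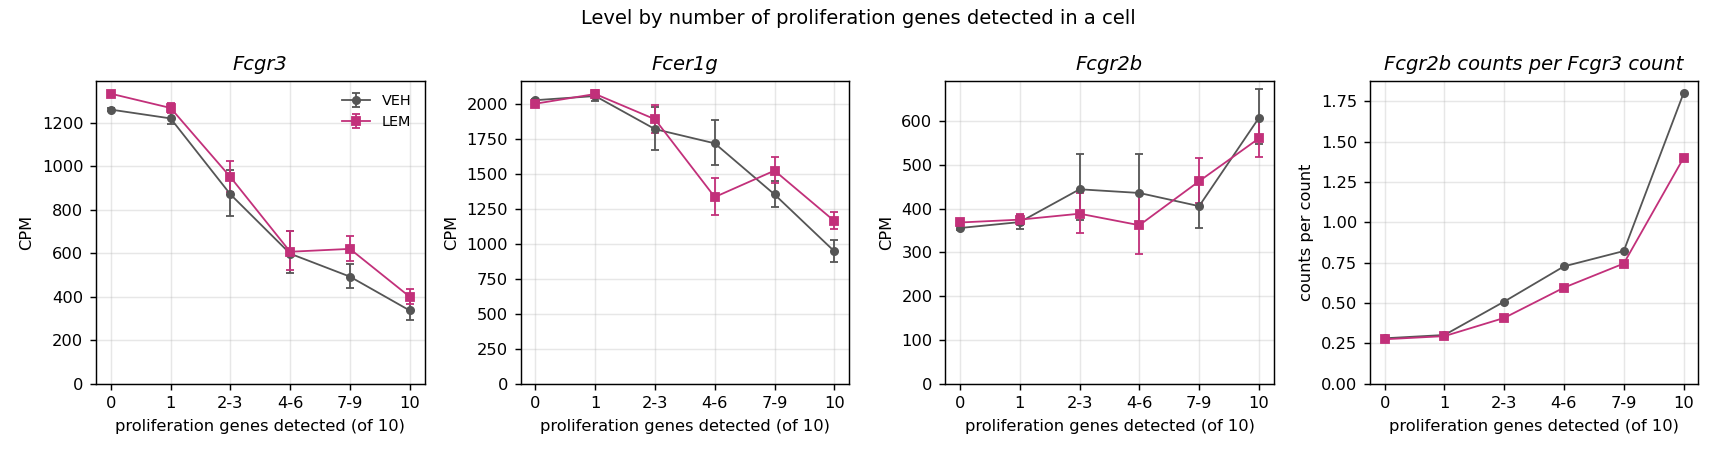
Levels in CPM, and *Fcgr2b* counts per *Fcgr3* count (vertical axes, starting at 0), against the number of mitotic genes, of 10, found in a cell (horizontal axis, in bins), with VEH in grey and LEM in magenta. Bars for the 95% Poisson interval are drawn on the levels only. *Fcgr3* was at 337 CPM and 401 CPM in cells with all 10 genes, against 1262 CPM and 1335 CPM in cells with none.

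In DAM-like cells the signalling chain was higher, and *Fcgr1* was lower in CPM but higher in counts per cell, with neither past 2-fold in CPM. *Fcer1g* was at 2644 CPM (2577 to 2712) in VEH and 2619 CPM (2566 to 2673) in LEM against 1990 CPM and 1955 CPM in homeostatic-like cells, or log2 0.41 (0.37 to 0.45) and 0.42 (0.39 to 0.45). It was found in every one of the 193 and 295 DAM-like cells. *Fcgr1* was at 240 CPM (220 to 261) and 266 CPM (250 to 284) against 343 CPM and 373 CPM, or log2 -0.51 and -0.49, but in counts per cell not divided by depth it was higher, at log2 0.40 and 0.44. DAM-like cells were deeper, with medians of 11812 and 12188 counts per cell against 5868 and 5906. *Fcgr3* stood at log2 -0.13 and -0.16, and *Fcgr2b* at 0.14 in VEH and -0.086 in LEM. In counts per cell both were above homeostatic-like cells, *Fcgr3* at 0.79 and 0.76 and *Fcgr2b* at 1.06 and 0.84. *Fcgr4* was at 10.3 CPM from 23 counts and 16.9 CPM from 60 counts, a log2 ratio of 0.38 (-0.28 to 0.98) in VEH and 0.65 (0.25 to 1.02) in LEM. The VEH value was -1.42 in female cells alone and 1.33 where 1 DAM gene more was required.

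In CPM, none of the members was past 2-fold in DAM-like cells (0 of 5), where 8.93% of all genes were higher and 9.55% lower in VEH, and 6.41% and 7.93% in LEM, around medians of log2 -0.24 and -0.25. The members' medians were 0.14 and -0.086. In counts per cell *Fcer1g*, at log2 1.33 and 1.35, and *Fcgr4* were past 2-fold higher in both libraries, and *Fcgr2b* in VEH. With more DAM genes in a cell *Fcer1g* was higher and *Fcgr1* lower in CPM, apart from steps into or out of the bin with 5 genes. *Fcer1g* was at 1963 CPM with none of the 7 genes, and at 2057, 2160, 2436, 2570, 2774 and 2615 CPM with 1 to 6 in VEH, so that the last step, to 27 cells, went down. In LEM it was at 1935, 2009, 2161, 2356, 2582, 2643 and 2887 CPM, each bin above the one before it. *Fcgr1* was at 353, 337, 315, 262, 256, 264 and 249 CPM in VEH and at 384, 375, 353, 289, 280, 294 and 269 CPM in LEM, with the step from 4 to 5 genes going up in both libraries. Depth moved with these bins, from a median of 5678 to 12768 counts per cell in VEH and from 5737 to 13858 in LEM.

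**Figure D4:**
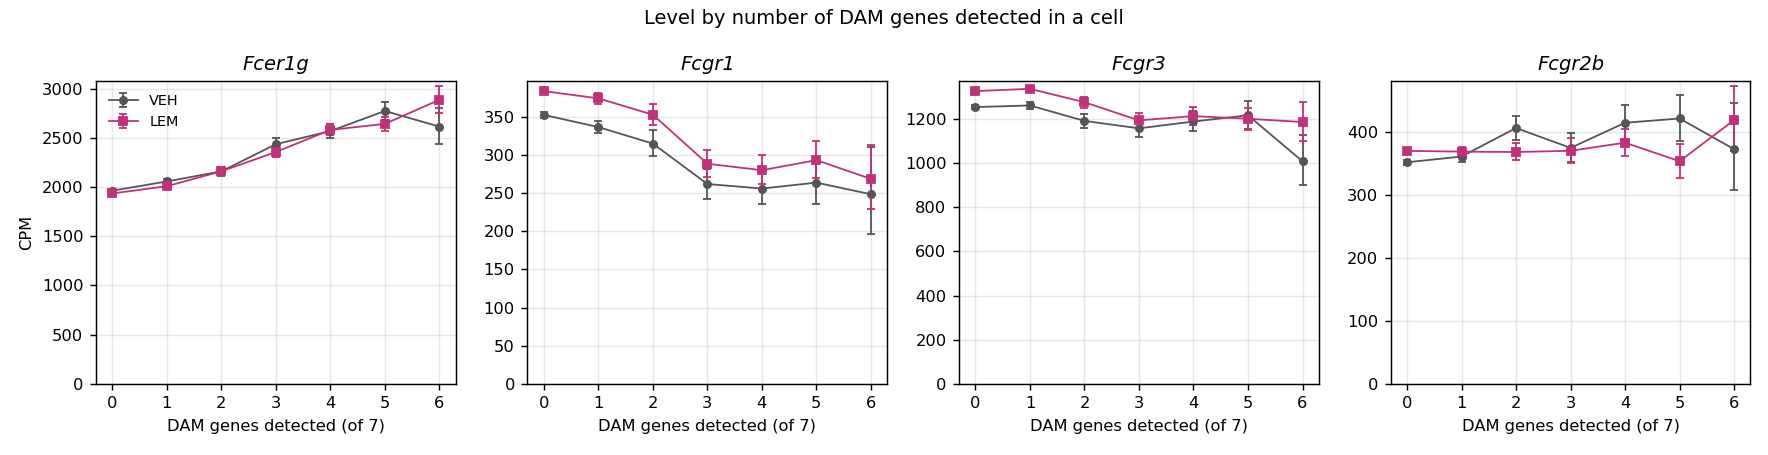
Level in CPM (vertical axis, starting at 0) against the number of DAM genes, of 7 measured, found in a cell (horizontal axis), with VEH in grey, LEM in magenta and bars for the 95% Poisson interval. *Fcer1g* went from 1963 CPM and 1935 CPM with no DAM gene to 2615 CPM and 2887 CPM with 6, and *Fcgr1* from 353 CPM and 384 CPM to 249 CPM and 269 CPM, a direction that held in CPM and not in counts per cell.

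MHC-II cells, which had counts of *H2-Aa*, *H2-Ab1* and *H2-Eb1*, had *Fcer1g* and *Fcgr1* on the same side of homeostatic-like cells as DAM-like cells did. They also held DAM genes, since this gate came first, with a summed level of the 7 genes of 2432 CPM in VEH and 2776 CPM in LEM against 2675 and 2092 CPM in DAM-like cells, and a median of 3 and 3.5 of the 7 genes found. The part of cells rich in DAM genes in the *Fcer1g* and *Fcgr1* values was not tested. *Fcer1g* was at 2547 CPM and 2549 CPM, or log2 0.36 and 0.38 against homeostatic-like cells. *Fcgr1* was at 271 CPM and 279 CPM, or log2 -0.34 and -0.42, and was higher per cell, at log2 0.39 in both libraries. *Fcgr2b* stood at log2 0.36 (0.28 to 0.45) and 0.22 (0.13 to 0.31), *Fcgr3* at -0.037 and -0.12 (but 0.69 in both libraries per cell), and *Fcgr4*, from 39 and 45 counts, at 0.95 (0.45 to 1.42) and 0.82 (0.36 to 1.25). Past 2-fold in CPM were 0 of 5 members, while 7.2% of all genes were higher and 7.48% lower in VEH, and 6.79% and 7.96% in LEM. The median of all genes was log2 -0.26 and -0.27 and that of the members 0.36 and 0.22. In counts per cell *Fcgr4* (log2 1.68 and 1.63), *Fcer1g* (1.09 and 1.19) and *Fcgr2b* (1.09 and 1.03) were past 2-fold higher in both libraries. Intermediate cells lay between homeostatic-like and DAM-like cells in *Fcer1g*, at 2244 CPM and 2237 CPM, and in *Fcgr1*, at 285 CPM and 321 CPM. BAM-like cells had the highest *Fcgr2b* level of the states, at 629 CPM (523 to 751) from 24 cells and 637 CPM (574 to 705) from 68 cells, log2 0.84 and 0.79 against homeostatic-like cells. The VEH interval overlapped that of proliferating-like cells. BAM-like cells also held the microglial gene *P2ry12*, at 2424 CPM in VEH and 2033 CPM in LEM. The part of microglial RNA in their levels was not tested. Their *Fcgr4* rested on 11 counts in VEH, at 56.7 CPM (28.3 to 102), and 6 in LEM, at 10.3 CPM (3.79 to 22.5).

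Over all cells, *Fcgr1* and *Fcgr4* were higher in LEM by more than log2 0.1, and *Fcgr3*, *Fcgr2b* and *Fcer1g* differed by less than that. *Fcgr1* was at 343 CPM in VEH and 373 CPM in LEM, a log2 ratio of 0.12 (0.10 to 0.14), and *Fcgr4* at 8.43 CPM and 11.4 CPM, a ratio of 0.44 (0.33 to 0.55) between levels not told apart from the choroid plexus-like droplets. *Fcgr3* stood at 0.075 (0.066 to 0.085), *Fcgr2b* at 0.047 (0.029 to 0.065) and *Fcer1g* at -0.019 (-0.026 to -0.011). Of the 5 members, 2 were higher by at least log2 0.1 and 0 lower, while 21% of 11910 genes were higher and 14.1% lower by that size. The study also used a log2 fold of 0.1, but for genes in at least 10% of cells and with a rank test over cells. Of the 4 members found in that share of cells, 1 was higher here. The median of the 5 members was 0.075 and that of all genes 0.014. These intervals cover counting error in 1 library per treatment and hold nothing of the differences between mice.

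The sexes could be read apart for most cells, taking *Xist* without Y-linked counts as female and the reverse as male, with 1 count enough. This gave 5686 female and 9025 male cells in VEH and 8409 and 11223 in LEM. Another 981 VEH and 1764 LEM cells held both kinds of count and 2682 and 2996 held neither, and they entered neither sex. How far free RNA or doublets reached the called sexes was not tested. In female cells *Fcgr1* was at 317 CPM in VEH and 373 CPM in LEM, log2 0.23 (0.20 to 0.27), and in male cells at 359 CPM and 375 CPM, log2 0.063 (0.037 to 0.089). Both were above 0, and the 2 intervals did not overlap. Within VEH the female level was below the male one by log2 -0.18 (-0.21 to -0.14), and within LEM the interval of the difference, -0.034 to 0.019, held 0. *Fcgr3* gave 0.11 in female and 0.052 in male cells, *Fcgr2b* 0.11 and 0.011, and *Fcer1g* -0.0045 and -0.051. *Fcgr4* was higher in LEM in both, at 0.43 (0.24 to 0.62) and 0.40 (0.23 to 0.57). How many mice of each sex were in each pool is not given in the sources used here.

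By state, *Fcgr1* was higher in LEM in homeostatic-like cells, at log2 0.12 (0.10 to 0.14), and in intermediate cells, at 0.17 (0.084 to 0.26). In DAM-like, MHC-II, interferon-like and proliferating-like cells the interval held 0, with values of 0.15, 0.039, -0.048 and -0.10. *Fcgr4* was higher in LEM in homeostatic-like cells, at 0.44 (0.32 to 0.57), and in interferon-like cells, at 0.71 (0.16 to 1.29), from 36 and 116 counts. In BAM-like cells it was lower, at -2.46 (-4.18 to -0.90), from 11 and 6 counts. In intermediate, DAM-like, MHC-II and proliferating-like cells its interval held 0. Interferon-like cells made up 1.50% (1.33% to 1.69%) of VEH and 2.06% (1.88% to 2.24%) of LEM cells.

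**Figure D5:**
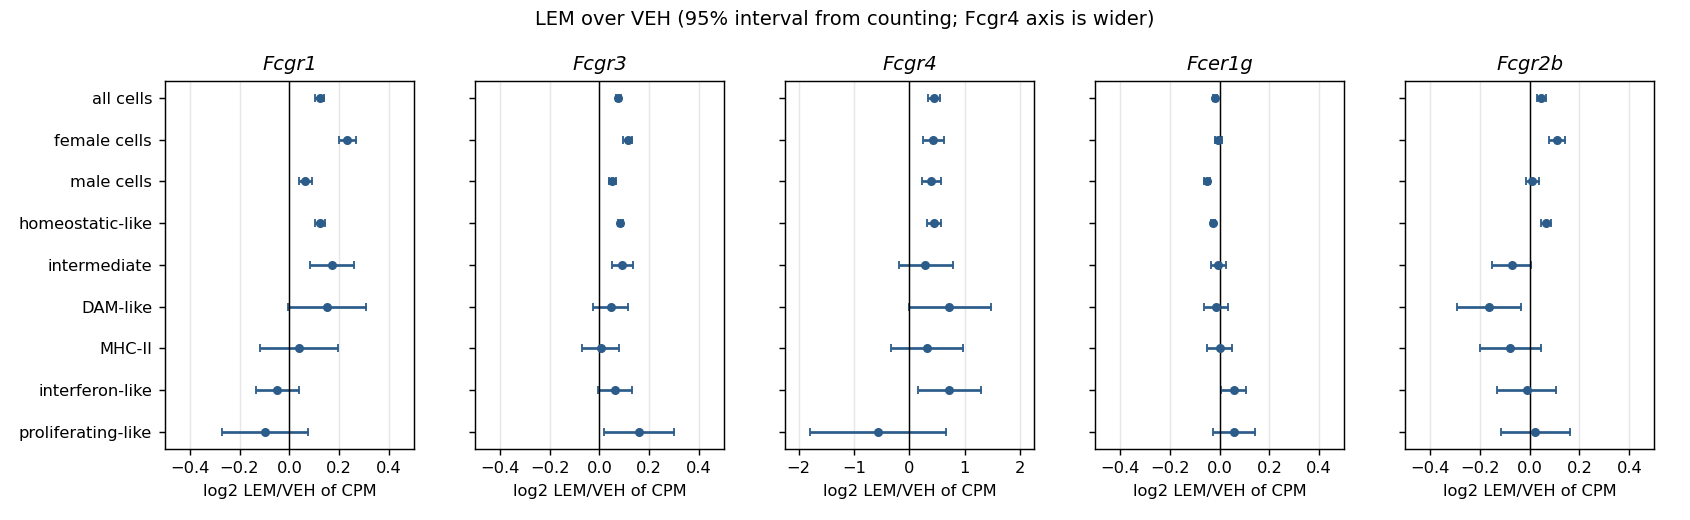
Log2 ratio of LEM over VEH in CPM (horizontal axis, wider for *Fcgr4*) for all cells, female and male cells and 6 states, with bars for the 95% interval from counting and a line at 0. *Fcgr1* stood at 0.23 in female and 0.063 in male cells, and *Fcer1g* at -0.019 over all cells.

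The rest of the pathway was described from lists of known genes. Ratios between states are given for these genes in CPM only, and not per cell. DAM-like, interferon-like and proliferating-like cells had higher median depths than homeostatic-like cells. Among other Fc and IgG receptors, 4 of 11 were measured in at least 1% of cells, and 3 were higher by log2 0.1 in LEM and 0 lower, with a median of 0.26, where 21% of all genes were higher and 14.1% lower. *Fcrls*, an Fc receptor-like gene typical of microglia, was at 1042 CPM in VEH and 1318 CPM in LEM, log2 0.34, *Fcrl1* at 0.56, *Fcgrt*, the neonatal Fc receptor that recycles IgG, at 0.17, and *Trim21*, a cytosolic antibody receptor, at 0.0045. *Trim21* stood at log2 0.88 and 1.11 in interferon-like over homeostatic-like cells. *Fcrl1* went the other way from *Fcer1g* in DAM-like cells, at log2 -1.43 and -1.49.

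Of 21 kinases and adaptors of the activating signal, 3 were higher and 3 lower in LEM, with a median of 0.00047, beside 21% and 14.1% of all genes. Among the highest were the adaptors *Sh3bp2* at 0.18 and *Card9* at 0.16, and the lowest of those found in at least 10% of cells were the ubiquitin ligases *Cbl* at -0.20 and *Cblb* at -0.11 and the adaptor *Lat2* at -0.069, which was not past log2 0.1. The third of the lower genes was the Src-family kinase *Fyn*, the lowest of the list at -0.58 (-0.73 to -0.43), found in 3.52% of VEH and 2.47% of LEM cells and named here after its values were seen. *Syk* stood at 0.015, and in CPM at log2 -0.90 and -0.89 in DAM-like over homeostatic-like cells, where *Lat2* stood at 1.07 and 0.99. In these deeper cells the members' ratios per cell were above those in CPM, and no ratio per cell was taken for *Syk* or *Lat2*. Of 8 measured phosphatases and related genes of the inhibitory signal, 2 were higher and 1 lower, with a median of 0.053, beside the same shares of all genes. Among them *Dok3* was at 0.19, *Dok1* at 0.12 and the inhibitory receptor *Cd300a* at 0.088, and *Inppl1* at -0.18, *Ptpn11* at -0.035 and *Ptprc* at -0.019. SHIP-1 (*Inpp5d*), the partner of FcγRIIB, stood at 0.027 and *Ptpn6* at 0.079. *Cd300a*, like *Fcgr3*, was lower in proliferating-like cells, at log2 -1.52 and -1.69.

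Of 33 measured genes of the phagocytic actin and lipid signal, 4 were higher and 7 lower in LEM, with a median of -0.0060, beside 21% and 14.1% of all genes. The highest was *Cybb*, the catalytic subunit of the phagocyte NADPH oxidase, at 0.38, found in 1.29% of VEH and 1.55% of LEM cells and named here after its values were seen. The kinase *Pak1* was at 0.18 and the oxidase genes *Ncf1* and *Cyba* at 0.16 and 0.11, while the PI3-kinase subunit *Pik3r1* was at -0.37, the oxidase gene *Ncf4* at -0.22 and the GTPase *Rac2* at -0.15. Another list held *Tyrobp*, a related ITAM chain, and receptors grouped with it or with *Fcer1g*. Of its 10 measured genes, 3 were higher and 2 lower, with a median of 0.057, beside the same shares. The 3 were *Pira2* at 1.63, found in fewer than 10% of cells and named here after its values were seen, *Clec4a3* at 0.23 and *Cd300c2* at 0.21. *Siglech* stood at 0.085, the integrin *Itgam* at -0.16, *Clec5a* at -0.11 and *Clec4a2*, which has an inhibitory ITIM motif of its own, at -0.0060. *Tyrobp* stood at 0.051 and *Trem2*, its lipid-sensing receptor, at 0.014. In DAM-like cells *Tyrobp* was at log2 1.62 and 1.52 and *Trem2* at 0.91 and 0.86, where *Fcer1g* stood at 0.41 and 0.42. *Cd300c2* and *Itgam* were lower in proliferating-like cells, at log2 -1.50 and -1.32 and at -1.19 and -1.14.

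The genes of the IgG heavy chains were all but uncounted. *Ighg1* and *Ighg2c* had 0 counts in both libraries, *Ighg3* had 0 in VEH and 1 in LEM and *Ighg2b* 2 and 13. Of the other antibody genes listed, the light chain gene *Igkc* had 0 counts in both libraries and *Jchain* 8 and 18, while *Ighm*, the heavy chain gene of IgM, was found in 40.1% and 42.5% of cells, at 97.3 CPM and 100.2 CPM, log2 0.042.

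The genes most like each member were found by Pearson correlation of log2(CPM + 1) over 14 points, each a state of at least 50 cells in 1 library, among 7506 genes found in at least 10% of cells. The points of 1 library share its depth and preparation, and the states differ in depth, so these values are a description. *Fcgr1* was followed most closely by *Rnf114* (r = 0.99), *Parp10* (0.97), *Zup1* (0.97), *Irgm1* (0.97) and *Hmox2* (0.97), of which *Parp10* and *Irgm1* are known interferon-induced genes. Among those nearest to *Fcgr3* were *Cd300c2* (0.98), *Hbp1* (0.97), *Cebpa* (0.96) and *Arl8a* (0.96), with rank correlations of 0.86 for *Cd300c2* and 0.32 for *Arl8a*. For *Fcgr4* the nearest were the proteasome activator genes *Psme1* (0.85) and *Psme2* (0.83), then *Lgals3bp* (0.83), *H2-T23* (0.79) and *Zfas1* (0.78). For *Fcer1g* they were *Itm2b* (0.98), *Ifnar2* (0.97), *Lsp1* (0.96), *Arl11* (0.96) and *Lipa* (0.96), and for *Fcgr2b* *Prune2* (0.94), *Esyt1* (0.92), *Susd6* (0.90), *Fam214a* (0.89) and *Ctsc* (0.89). Ranks gave mostly other genes: of the 5 nearest by Pearson correlation, 0 for *Fcgr1*, 0 for *Fcgr3*, 3 for *Fcgr4*, 1 for *Fcer1g* and 1 for *Fcgr2b* were also among the 5 nearest by Spearman correlation. Among the members, *Fcgr3* and *Fcer1g* were closest by Pearson correlation, at 0.82, *Fcgr4* stood at 0.56 with both *Fcgr3* and *Fcer1g* and at 0.50 with *Fcgr1*, and *Fcgr3* and *Fcgr2b* at -0.18.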

How the data were processed

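The authors prepared 5′ libraries on the 10x Chromium platform and counted molecules with Cell Ranger 8.0.0 on mm10, per the labels and the methods. Per the file, the authors deposited raw counts as whole numbers, 1 value for each gene in each cell, with no normalization or cell type annotation. Cells held at least 501 genes and at most 19999 counts. Whether the removal of free RNA that the authors describe is part of the deposited counts could not be told, and no further correction was made. Cell names gave the treatment, and 0 columns were unmatched.

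Counts were summed per state and library in Python 3.11.15 with numpy 2.4.6 and scipy 1.17.1. CPM, exact Poisson and Clopper-Pearson intervals and conditional binomial intervals of ratios were computed at 95% and tested on simulated data. Cells entered the first gate passed, in the order choroid plexus (3 genes), lymphocyte (3), neutrophil or monocyte (3), BAM (3), proliferating (4), interferon (5), MHC-II (3), DAM (4), intermediate (2 or 3 DAM genes) and homeostatic (at least 5 of 8 genes). The lymphocyte gate held 2 cells and the neutrophil or monocyte gate 1. The rest, 283 VEH and 397 LEM cells with medians of 1469 and 1406 counts, stayed ungated. More than 1 gate was passed by 284 cells (2 gates), 24 (3) and 1 (4). Just inside and just outside the gates were 451 and 630 cells for DAM, 221 and 343 for interferon and 24 and 35 for proliferation. *Clec7a*, 1 of the 8 DAM genes listed, was not used here.

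A gene was tested against the fold where at least 1% of the cells of either group compared held it. The Scrublet threshold (scanpy 1.11.5, expected rate 0.1) marked 0 VEH cells and 12.8% of LEM cells, so it did not work, and as an alternative the 10.0% of cells with the highest scores in each library (1837 and 2439) were left out. The genes named are the members, the 3 highest and 3 lowest of each list among genes found in at least 10% of cells, *Tyrobp*, *Trem2*, *Syk*, *Inpp5d*, *Ptpn6*, *Fcrls* and *Fcgrt*, and the 5 genes nearest to each member. Some genes that this rule names are not reported here. The rule for the members used gene symbols only, and the members and the lists were chosen with earlier results of these data known.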

Additional observations from a re-analysis of the deposited data

Results flagged for a closer look

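The changes of *Fcer1g* and *Fcgr2b* between VEH and LEM were small over all cells. Their direction was not the same in all groups of cells, with counting intervals on opposite sides of 0. Larger changes stood in the shallow ungated cells, where *Fcer1g* was at log2 0.57 (0.43 to 0.70) and *Fcgr2b* at 0.56 (0.16 to 0.98). In choroid plexus-like droplets *Fcer1g* was at -0.24 (-0.39 to -0.098). In MHC-II cells *Fcer1g* was lower in LEM in female cells, at log2 -0.17 (-0.27 to -0.064), and higher in male cells, at 0.10 (0.034 to 0.17). The female value compares 44 VEH with 78 LEM cells. *Fcer1g* was also higher in LEM in interferon-like cells, at 0.056 (0.0063 to 0.11), and lower in homeostatic-like cells, at -0.026 (-0.034 to -0.017). *Fcgr2b* was higher in LEM in homeostatic-like cells, at 0.065 (0.046 to 0.085), and lower in DAM-like cells, at -0.16 (-0.29 to -0.036), where female cells alone gave 0.046 and male cells -0.36. With 1 library per treatment these differences were not tested.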

How the results depend on the processing

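No paired analysis was possible because each treatment had 1 library. For LEM over VEH, 37 of 57 alternative values were the same as the main ones, a ratio being the same where it stayed within its counting interval. The 57 also hold the counts of members past the fold, which have no interval. The ratios of *Fcgr1* and *Fcgr4* stayed above 0 in every alternative. In female cells alone the log2 ratios were 0.23 for *Fcgr1*, 0.11 for *Fcgr3*, -0.0045 for *Fcer1g* and 0.11 for *Fcgr2b*, and in male cells alone 0.063, 0.052, -0.051 and 0.011. With the sexes weighted equally *Fcgr1* was at 0.15 and *Fcer1g* at -0.028. Thinned cells gave 0.14 for *Fcgr1* and 0.32 for *Fcgr4*. Scaling by the median of ratios gave 0.062 for *Fcgr3* and -0.032 for *Fcer1g*, totals without the 20 most abundant genes 0.064 and -0.029, the mean over cells 0.00033 for *Fcer1g*, and homeostatic-like cells alone 0.065 for *Fcgr2b*. A fold of log2 0.5 left 0 members past it instead of 2, and genes in at least 10% of cells 1.

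Of the state ratios, 247 of 358 alternative values stayed within the interval. In interferon-like cells the members past 2-fold went from 2 to 1 in both libraries where 1 gene fewer was required, and in female cells to 1 in VEH and 0 in LEM. In LEM proliferating-like cells they went from 1 to 2 in female cells. In MHC-II cells they went from 0 to 1 in both libraries with gates on thinned cells and with gates taken without regard to each other, in VEH with the mean over cells and in LEM in male cells, each time *Fcgr4*. In DAM-like cells 1 was past it in both libraries where 1 gene more was required, and in VEH with gates on thinned cells and in female cells. Counts per cell not divided by totals, an alternative added after seeing the data, gave 3 members in MHC-II cells of each library and 3 (VEH) and 2 (LEM) in DAM-like cells, which are deeper than homeostatic-like cells. In proliferating-like cells they left 1 in each library, *Fcgr2b* in place of *Fcgr3*. The S-phase bins and a choroid plexus gate of 7 genes were also added after seeing the data. *Fcgr2b* per *Fcgr3* count stayed within its interval in 17 of 24 alternatives, and all 20 shares of cells moved with the depth or the count required. The cause was not tested for any of these. *Fcgr4*, with 6 to 116 counts in the smaller states, is limited by depth.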

Other observations

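Among the receptors grouped with *Fcer1g* or *Tyrobp*, *Pira2*, an activating paired immunoglobulin-like receptor, had the largest ratio of LEM over VEH of those with over 100 counts. It was at 4.58 CPM in 2.74% of VEH cells and 14.2 CPM in 8.63% of LEM cells, log2 1.63 (1.50 to 1.77). *Pira2* has near-identical relatives in the genome, so its counts are uncertain. *Cybb* was at 3.73 CPM in VEH and 4.85 CPM in LEM, and stood at log2 4.75 and 4.50 in interferon-like, 4.67 and 4.07 in proliferating-like and 3.73 and 3.60 in DAM-like over homeostatic-like cells.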
